A study of Mus musculus with 40 samples.

Results

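Mediator is the large protein complex that carries signals from transcription factors bound to DNA to RNA polymerase II, the enzyme that makes messenger RNA. Its head and middle modules contact the polymerase, its tail meets activators, Med14 runs as a backbone through all of them, and a separable kinase module, built from Cdk8 or Cdk19 with cyclin C, Med12 and Med13, docks on and off the core. The early mouse embryo starts with RNA and protein stored in the egg, and its own genome is switched on mainly at the 2-cell stage, so the subunit messages at these stages can be stored by the mother, made by the embryo, or both. Mediator genes were taken as every gene whose symbol begins with Med and a number, plus Cdk8, Cdk19 and Ccnc (cyclin C), measured by probe sets annotated to 1 gene only. This gave 34 genes of the 18193 genes with such a probe set, measured by 73 probe sets, and the probe set with the highest mean over all arrays stood for each gene. One of the 34, Med9os, is a noncoding gene on the strand opposite Med9 and no subunit. It did not exceed the overall median signal on any array, with a mean of 3.47 on the log2 scale, and it was the single member that failed the filter on low values. The other 33, all subunit genes, were tested among 14916 genes.

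The study profiled poly(A) RNA of B6D2 mouse embryos on Affymetrix arrays at the 1-cell and the 2-cell stage. Fertilized embryos and embryos made by somatic cell nuclear transfer (SCNT, in which the nucleus of a cumulus cell replaces that of the egg) were each sampled without and with α-amanitin, which blocks RNA polymerase II. Parthenogenetic embryos, from eggs activated without sperm, were sampled untreated only. Of these 10 groups, 9 had 4 arrays, and the SCNT 1-cell group without amanitin had 3, since the column of its replicate 2 held no values. SCNT donors were cells of B6D2 females, per the labels, and the labels name MEMα as the medium of SCNT embryos and KSOM for 1 fertilized sample, so medium and origin cannot be told apart. For fertilized embryos, amanitin rests on a letter in the sample titles and on the series' design text. The labels do not say whether arrays of a group hold separate cultures or litters, so p-values measure only the spread between these arrays.

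Values are log2 of the deposited intensity plus 6.9, a constant taken from the 20th percentile of all values, and a gene was called where limma's moderated test gave an adjusted p under 0.05. Folds are on that scale and understate changes of dim genes. The 9 measured oocyte and early embryo markers were above the overall median of 5.34 in every group. The mean of 13 cumulus cell markers lay between 5.13 and 6.01 on every array, that of 6 spermatid and sperm markers between 4.20 and 5.27, and that of 2 blood markers between 3.685 and 5.30. By group, 4 to 8 of the cumulus, 0 to 3 of the sperm and 0 or 1 of the blood markers were above the overall median. The mean of 4 measured 2-cell stage markers was 9.158 to 9.506 on fertilized 2-cell arrays and 7.196 to 7.585 with amanitin. In SCNT 2-cell embryos it was 8.552 to 8.762 and 6.142 to 6.468. Tcstv1, 1 of these markers, went the other way in fertilized embryos (8.98 without and 9.45 with amanitin). The cumulus markers Nr5a2 (8.05 to 10.3), Foxl2 (6.92 to 8.02) and Pgr (5.75 to 6.05) were above it in every group. Another, Inhba, averaged 5.31 to 6.03 in SCNT groups and 3.64 to 4.38 in the others, and a part of the donor cells in this was not tested. Correlation between replicate arrays was 0.9397 to 0.9797, lowest among the SCNT 2-cell arrays with amanitin. The hybridization controls of those arrays were also the brightest, with a group mean of 10.88 against 9.59 in untreated SCNT 2-cell embryos. Their poly(A) spike-in controls averaged 9.595 against 7.986, and those of SCNT 1-cell arrays were the dimmest of the series, at 3.6 without and 3.725 with amanitin. In whole embryos, fewer cells with a transcript and less of it per cell cannot be told apart. Another scaling moved the median difference of all genes by up to 0.26, as for the stage change of fertilized embryos with amanitin, which was 0.11 after quantile normalization, 0.32 as deposited and -0.15 with each array centred on its median.

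**Figure D1:**
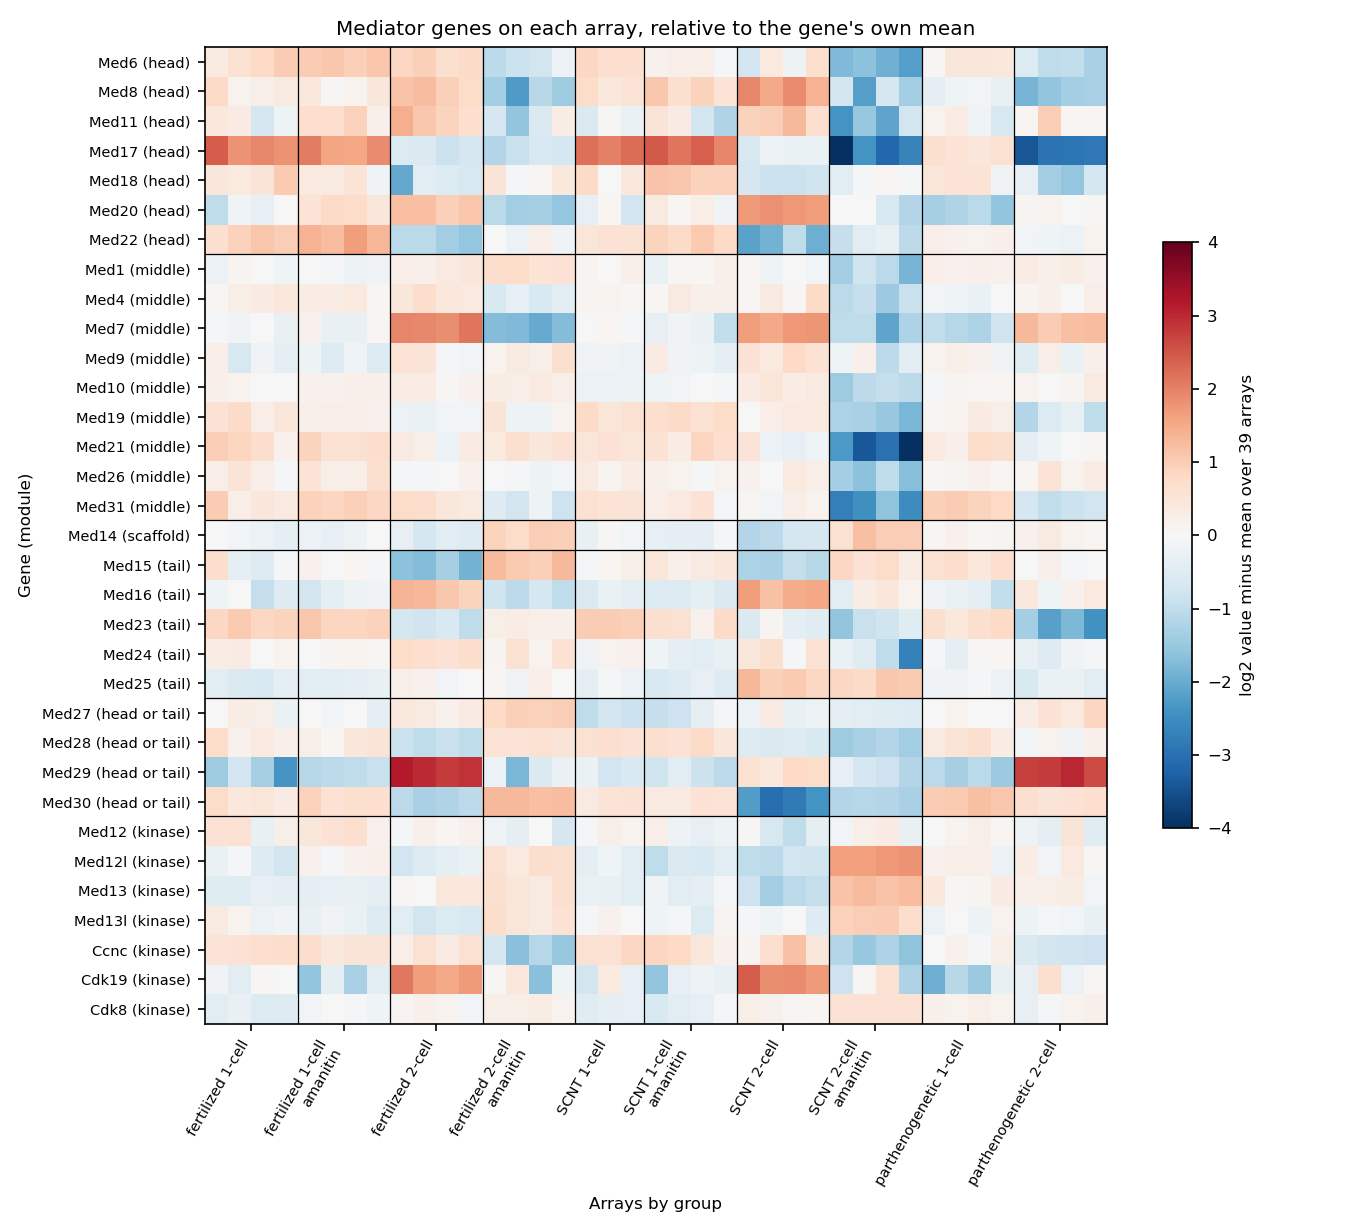
Heat map of 33 Mediator genes (rows, ordered by module) on 39 arrays (columns, by group), as the log2 value minus the gene's own mean over all arrays. Of the 9 middle module genes, 8 are blue (below their mean) on all 4 SCNT 2-cell arrays with amanitin, with Med9 mixed, and Med29 is red on the fertilized and parthenogenetic 2-cell arrays.

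From the 1-cell to the 2-cell stage, the subunit genes of fertilized embryos did not move as a block. Of 33 genes, 11 rose and 10 fell (63.6%), against 60% of all genes called (25.8% higher, 34.2% lower), so the share called was near that of all genes. The 18S ribosomal RNA control probe sets moved with the stage, from a group mean of 13.17 to 10.25, and their part in these values was not tested. The members' median was 0.10, against -0.13 for all genes tested. Arrays of the 2 stages did not overlap in 20 of 33 members and in 55% of all genes. The genes that rose most were Med29, a subunit found in animals, Med7, a hinge protein of the middle module, and Cdk19, the paralog of the Cdk8 kinase. Those that fell most were Med17, the core of the head, Med22, a small head subunit that pairs with Med11, and Med23, a tail subunit targeted by signal-dependent activators.

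Med29 read 4.89, 5.56, 5.001 and 3.97 on the 4 fertilized 1-cell arrays and 9.48, 9.31, 9.11 and 9.20 on the 4 2-cell arrays. Every 2-cell array was above every 1-cell array, and the difference was 4.42 ± 0.26 (SE, adjusted p = 3.87e-18), or 21.4-fold. The Med29 mean at the 1-cell stage, 4.856, was below the overall median of 5.34, so this fold starts from a dim signal. Med7 read 8.03, 7.93, 8.04 and 7.76 at the 1-cell stage and 10.02, 9.97, 9.93 and 10.21 at the 2-cell stage. The groups did not overlap, with a difference of 2.09 ± 0.17 (SE, adjusted p = 6.78e-14). Cdk19 read 5.46, 5.14, 5.65 and 5.56 and then 7.70, 7.27, 7.11 and 7.30, again without overlap, and rose by 1.89 ± 0.40 (SE, adjusted p = 6.72e-05).

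Med17 read 11.13, 10.50, 10.62 and 10.50 on the 1-cell arrays and 8.16, 8.14, 7.86 and 8.03 on the 2-cell arrays. All 2-cell arrays were lower, and the difference was -2.64 ± 0.26 (SE, adjusted p = 1.11e-11). Med22 read 9.93, 10.20, 10.37 and 10.26 and then 8.19, 8.19, 7.89 and 7.72, a difference of -2.19 ± 0.17 (SE, adjusted p = 7.22e-15). Med23 read 9.64, 9.84, 9.64 and 9.70 and then 8.12, 8.01, 8.19 and 7.80, a difference of -1.68 ± 0.18 (SE, adjusted p = 5.88e-11). In both genes the groups did not overlap.

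Rises and falls occurred inside the same module. In the head, 3 of 7 genes rose and 3 fell, and partners parted: Med20 rose by 1.49 while Med18, with which it forms the movable jaw of the head, changed by -1.52, and Med11 rose by 1.07 while its partner Med22 changed by -2.19. In the tail, Med16 (1.58) and Med25 (0.56) rose and Med15 (-1.60), a docking site for sterol and other activators, and Med23 fell. The middle module had the lowest share of calls (33.3%), with 2 of 9 genes higher, 1 lower (Med19, -0.72) and a median of 0.12. Of the 4 genes placed at the border of head and tail, Med28 (-1.33) and Med30 (-1.65) fell, Med29 rose, and Med27 was not called (0.25). In the kinase module Cdk19, Cdk8 (0.52) and Med13 (0.64) rose and Med13l (-0.61) fell.

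The promoters of 2 genes that rose, Med29 and Med7, and 2 that fell, Med17 and Med18, are shown as the 250 bases before the gene start, 5′ to 3′ on the gene's strand, from RefSeq windows on GRCm38.p6. Med29 starts next to chr7:28392691-28392940 (minus strand), Med7 next to chr11:46436697-46436946 (plus strand), Med17 next to chr9:15279907-15280156 (minus strand) and Med18 next to chr4:132463922-132464171 (minus strand). Capitals mark the motifs searched on both strands, counting overlapping matches, namely TATAAA (the core of the TATA box), GGGCGG (that of the GC box), CCGGAA (that of sites for ETS factors), CCAAT (the CCAAT box) and TAATCC (bound by OTX and related homeobox factors).
Med29: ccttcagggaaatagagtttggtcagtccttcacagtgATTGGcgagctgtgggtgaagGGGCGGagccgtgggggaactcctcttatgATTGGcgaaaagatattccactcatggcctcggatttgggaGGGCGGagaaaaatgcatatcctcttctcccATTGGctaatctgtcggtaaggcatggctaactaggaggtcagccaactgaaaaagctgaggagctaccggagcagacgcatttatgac
Med7: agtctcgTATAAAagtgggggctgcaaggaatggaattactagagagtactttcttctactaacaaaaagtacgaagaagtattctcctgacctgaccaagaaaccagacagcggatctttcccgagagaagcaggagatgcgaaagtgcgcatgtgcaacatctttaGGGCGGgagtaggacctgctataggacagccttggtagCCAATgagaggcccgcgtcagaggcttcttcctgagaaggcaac
Med17: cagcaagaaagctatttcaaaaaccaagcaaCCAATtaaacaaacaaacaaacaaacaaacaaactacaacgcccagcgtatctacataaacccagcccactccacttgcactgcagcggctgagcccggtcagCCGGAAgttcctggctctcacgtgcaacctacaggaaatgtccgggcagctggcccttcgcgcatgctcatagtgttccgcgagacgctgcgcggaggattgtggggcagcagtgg
Med18: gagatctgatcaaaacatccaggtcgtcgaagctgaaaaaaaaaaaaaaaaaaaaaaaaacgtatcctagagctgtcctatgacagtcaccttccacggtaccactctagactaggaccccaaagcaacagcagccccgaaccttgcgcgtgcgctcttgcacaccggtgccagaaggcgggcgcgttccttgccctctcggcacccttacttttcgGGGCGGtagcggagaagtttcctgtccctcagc
Among the 29 members with a window, 65.5% held GGGCGG, against 32.7% of all 32851 windows of that length. CCGGAA was in 24.1% against 12%, CCAAT in 37.9% against 33.8%, TATAAA in 10.3% against 12.4% and TAATCC in 6.9% against 6.25%. The median number of CpG pairs per window was 18 for members and 6 for all. The background windows were not limited to the genes tested here. A difference from them is therefore not shown to be particular to Mediator genes. Med29 held 2 GGGCGG and 3 CCAAT matches, Med7 held 1 GGGCGG, 1 CCAAT and 1 TATAAA, Med17 held 1 CCGGAA and 1 CCAAT, and Med18 held 1 GGGCGG. Such matches describe letters and are no test of binding.

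For 5 subunit genes, a tested neighbour on the other strand starts within 1000 bases head to head, and pairs did not always move together. Paf1, a subunit of an elongation complex, starts 306 bases from Med29 and rose with it (1.83 against 4.42). Bysl, a ribosome assembly factor, starts 93 bases from Med20 and also rose (1.34 against 1.49). Rpl7a, a ribosomal protein gene 165 bases from Med22, rose by 1.64 where Med22 changed by -2.19, and Tmx2, 228 bases from Med19, rose by 1.40 where Med19 changed by -0.72. Amanitin at the fertilized 2-cell stage gave -4.01 for Paf1, -2.79 for Bysl, -2.86 for Rpl7a and -1.46 for Tmx2, all called lower. Gm14634, which starts 305 bases from Med14, was called in neither comparison (-0.31 between the stages and 0.42 with amanitin).

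**Figure D2:**
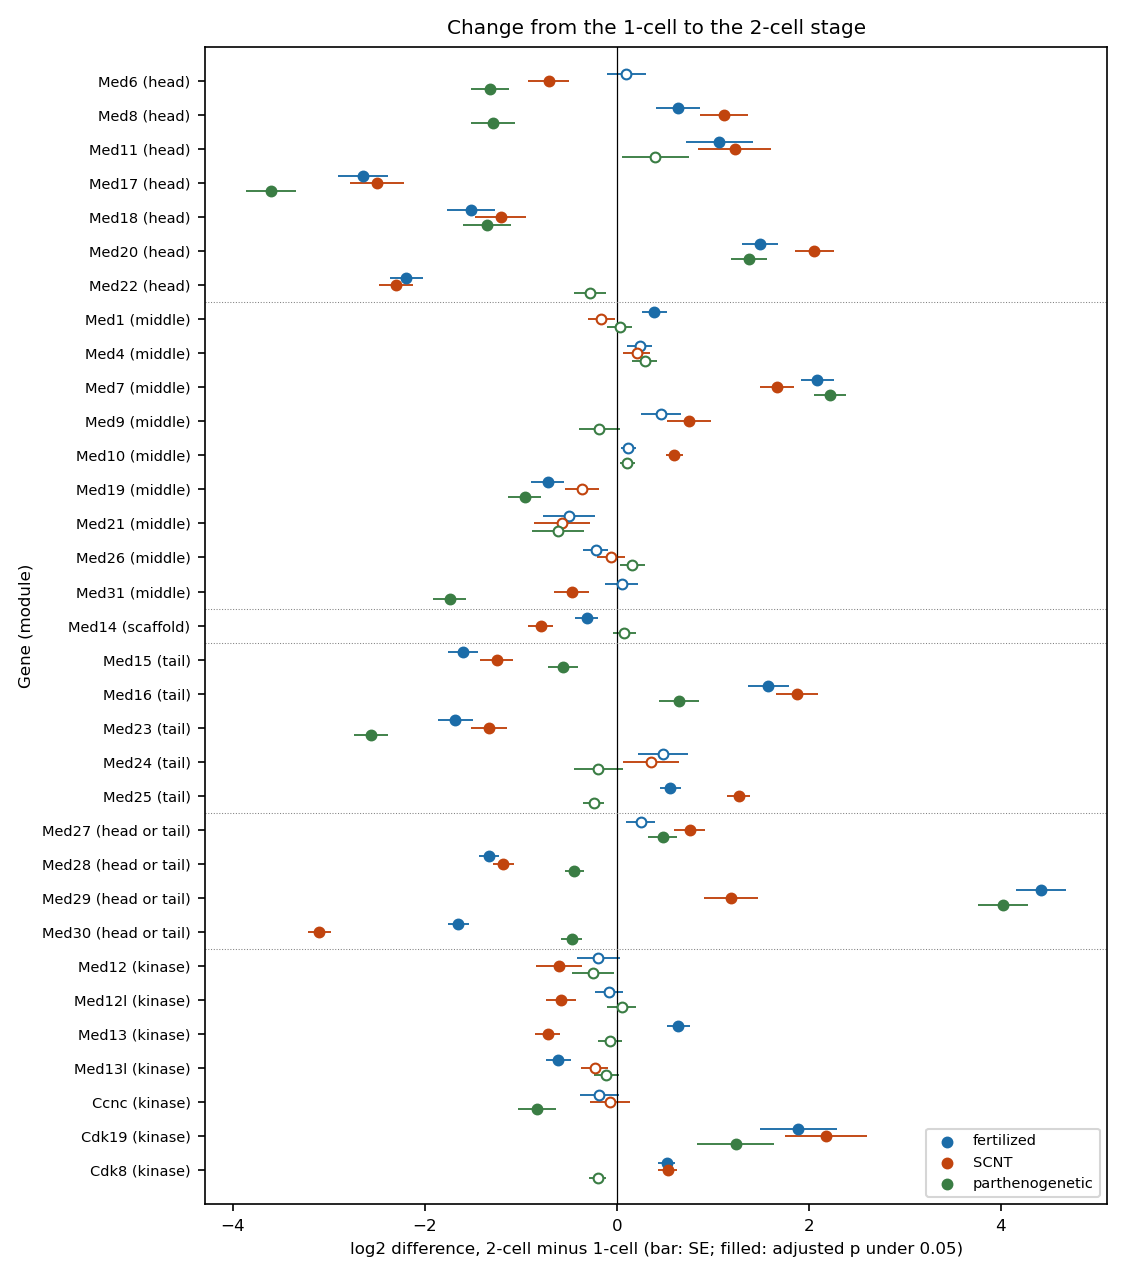
Log2 difference between the 2-cell and the 1-cell stage (horizontal axis) for 33 Mediator genes by module, in fertilized (blue), SCNT (orange) and parthenogenetic embryos (green), with bars of 1 SE and filled points where the adjusted p was under 0.05. Med29 stands at 4.42 in fertilized, 4.02 in parthenogenetic and 1.19 in SCNT embryos.

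In SCNT embryos, 12 of 33 genes rose and 13 fell between the stages, against 60.7% of all genes called (26.3% higher, 34.4% lower), and the split was 9 higher and 18 lower with each array centred on its median. The dim poly(A) controls of the SCNT 1-cell arrays go with this comparison, as does the 18S control, at 13.25 and then 10.81, and their part in it was not tested. In parthenogenetic embryos 6 rose and 11 fell, against 49.1% of all genes (21.7% higher, 27.4% lower), with 5 and 23 after median centring, and the 18S control read 12.98 and then 11.22. Fertilized and SCNT embryos share no arrays here: 9 genes rose in both (81.8% of the fertilized and 75% of the SCNT list), 8 fell in both (80% and 61.5%), and Med13 was called in opposite directions. That holds for the Med13 probe set used: another rose in SCNT embryos (1.10), and the mean of its probe sets there was 0.00. Between fertilized and parthenogenetic embryos, 5 genes rose in both (Cdk19, Med16, Med20, Med29 and Med7) and 7 fell in both, and Med8, a head subunit that anchors Med18 and Med20, was called in opposite directions (0.64 and -1.29). Its other probe set fell in fertilized embryos (-1.24), and the mean of its probe sets was -0.30 there, so the opposite direction rests on the probe set used. Calls shared between origins were not counted over all genes, so these overlaps have no background here.

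The difference between the stage changes was itself tested. Of 33 genes, 2 had a more positive and 5 a more negative stage change in SCNT than in fertilized embryos, against 19% of all genes called (8.62% higher, 10.4% lower). The split was 1 and 5 as deposited and 0 and 6 after median centring. Med29 had the most negative difference, -3.23 ± 0.38 (SE, adjusted p = 5.34e-08). It read 6.04, 5.57 and 5.70 on the 3 SCNT 1-cell arrays and 6.92, 6.74, 7.13 and 7.05 on the 4 SCNT 2-cell arrays, so it rose there, by 1.19, but every SCNT 2-cell array lay below every fertilized 2-cell array. Its other 2 probe sets past the filter gave a smaller difference that was not called, -0.58 and -0.96, and rose by 4.42 and 2.18 in SCNT embryos. Med30, also a subunit found in animals, followed with -1.45 ± 0.16 (SE, adjusted p = 1.2e-08), and Med13, which tethers the kinase module to the core, with -1.35 ± 0.18 (SE, adjusted p = 3.45e-07).

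Between parthenogenetic and fertilized embryos, the stage change differed in 14 members, 5 more positive and 9 more negative, against 35.4% of all genes (19.8% higher, 15.7% lower), and 3 and 12 after median centring. Med8 (-1.92), Med31 (-1.78), a small conserved middle subunit, and Med6 (-1.41), a head subunit, were the most negative. Med22 was the most positive, 1.91 ± 0.23 (SE, adjusted p = 1.67e-08). It read 9.53, 9.45, 9.40 and 9.45 and 9.16, 9.11, 9.02 and 9.41 in parthenogenetic 1-cell and 2-cell embryos. Those groups overlapped, and the change was not called (-0.28). Med29 read 5.24, 4.99, 5.25 and 4.87 and then 9.05, 9.11, 9.34 and 8.91 in parthenogenetic embryos, and its difference from the fertilized stage change was not called (-0.40).

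**Figure D3:**
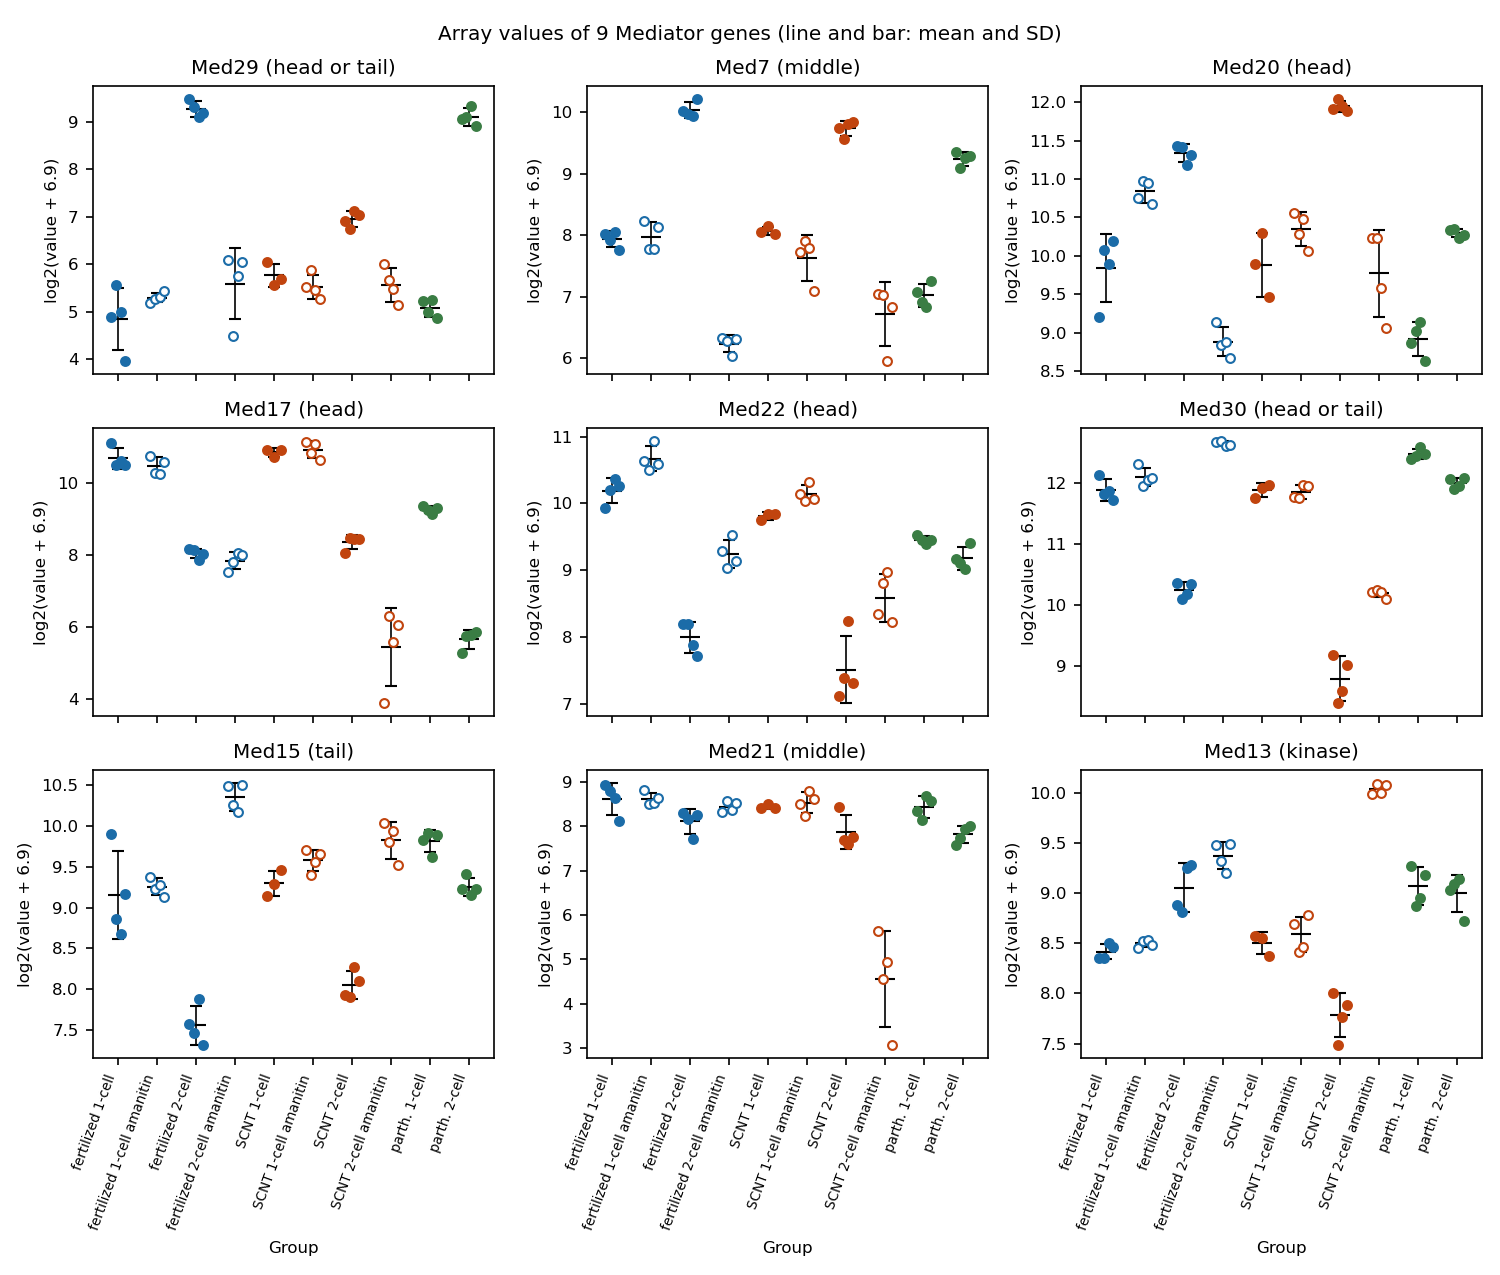
Array values of 9 Mediator genes, as log2(value + 6.9) on the vertical axis, in the 10 groups, with open points for amanitin and lines and bars for the mean and SD. Med29, Med7 and Med20 rise at the untreated 2-cell stage and are lower with amanitin at that stage. Med17 falls between the stages, as does Med22 in fertilized and SCNT embryos, while its change in parthenogenetic embryos was not called. Med21 is low only on the SCNT 2-cell arrays with amanitin, at 3.08 to 5.64.

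The amanitin comparison at the 2-cell stage asks which messages differ when polymerase II is blocked. In fertilized embryos 12 of 33 genes were higher with amanitin and 11 lower, against 64.3% of all genes called (38.6% higher, 25.8% lower), and the members' median was 0.10 against 0.27 for all genes. The 18S control was higher with amanitin, at 12.79 against 10.25, and its part in these values was not tested. Arrays with and without amanitin did not overlap in 23 of 33 members and in 60% of all genes. The lowest were Med7, Med29 and Med8, and the highest Med15, Med30 and Med28. The untreated 2-cell arrays enter both this comparison and the stage change, so the values stand side by side with nothing read from their likeness.

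With amanitin, Med7 read 6.33, 6.28, 6.03 and 6.31 at the 2-cell stage, below every untreated 2-cell array by more than 3 log2 units, and the difference was -3.80 ± 0.17 (SE, adjusted p = 7.64e-22), 13.9-fold lower. Med29 read 6.09, 4.50, 5.75 and 6.05, with a difference of -3.67 ± 0.26 (SE, adjusted p = 1.02e-15). Med8 read 8.83, 8.93, 8.63 and 8.43 without and 6.34, 5.42, 6.58 and 6.27 with amanitin, with a difference of -2.55 ± 0.23 (SE, adjusted p = 1.18e-12). None of the 3 overlapped with the untreated arrays. Med20, the other large riser of the head, differed by -2.45 ± 0.19 (SE, adjusted p = 8.84e-15), and its second probe set by -2.74. Med16 (-2.07), Cdk19 (-2.09), Ccnc (-1.70), Med11 (-1.66), Med6 (-1.51), Med31 (-1.14) and Med4 (-0.99) made up the rest.

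Med15 read 7.57, 7.47, 7.88 and 7.32 without amanitin and 10.49, 10.26, 10.17 and 10.51 with it. Every amanitin array was higher, by 2.80 ± 0.16 (SE, adjusted p = 1.02e-18), and these arrays were also above those of the 1-cell stage with amanitin (9.38, 9.23, 9.28 and 9.13). Arrays of the 2 stages with amanitin did not overlap in 24 of 33 members and in 43.1% of all genes. Med30 read 10.36, 10.09, 10.18 and 10.34 and, with amanitin, 12.68, 12.69, 12.61 and 12.63, a difference of 2.41 ± 0.11 (SE, adjusted p = 8.74e-22). Med28 read 11.14, 10.99, 11.11 and 11.00 and 12.57, 12.57, 12.63 and 12.52, a difference of 1.51 ± 0.10 (SE, adjusted p = 8.66e-17). Of the 3 largest stage falls, Med22 (1.25) and Med23 (1.02) were higher with amanitin, whereas Med17 was not called (-0.20 ± 0.26 SE, adjusted p = 0.523), with 7.53, 7.80, 8.05 and 8.01 on the amanitin arrays. The 95% interval of that Med17 difference ran from -0.72 to 0.33. These genes were picked for low values on the same untreated 2-cell arrays, which favours a higher value with amanitin, so nothing is read from it.

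Between the stages with amanitin present, 11 members were higher and 14 lower in fertilized embryos, against 40.6% of all genes called (21.5% higher, 19% lower), and the split was 14 and 13 as deposited and 4 and 17 after median centring. In the head module, 6 of 7 genes fell, from -1.26 for Med11 to -2.62 for Med17, and Med18 was not called (-0.05). Med15 rose by 1.10, and the backbone gene Med14 by 1.07. Of the 11 genes that rose without amanitin, Med7, Med8, Med11, Med16 and Med20 fell with it. Cdk8, Med1, Med13 and Med25 rose in both (Med25 had -0.16 with amanitin after median centring). For Med1 this is the direction of the probe set used, since in each comparison another was called lower. Med29 and Cdk19 were not called with amanitin (0.29 and 0.59).

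In SCNT 2-cell embryos amanitin was associated with a change in nearly every subunit gene. Of 33 genes, 32 were called, 22 of them lower and 10 higher, against 69.2% of all genes called (39.6% higher, 29.7% lower). The members' median was -1.34, where that of all genes was 0.28. Arrays with and without amanitin did not overlap in 29 of 33 members and in 60.7% of all genes. The 18S control averaged 13.15 with and 10.81 without amanitin, and its part was not tested. By the probe sets used, all 9 middle module genes were lower, from -0.93 for Med9 to -3.32 for Med21, while in fertilized embryos 3 of the 9 were lower and 1 higher. Another probe set of Med1 (1.61) and another of Med26 (1.07) were called higher in SCNT embryos. Med25 was the gene not called (-0.12).

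Med21, which pairs with Med7 in the middle module, read 8.45, 7.69, 7.61 and 7.76 without amanitin and 5.64, 4.55, 4.95 and 3.08 with it, and the difference was -3.32 ± 0.27 (SE, adjusted p = 4.99e-14). All 4 amanitin arrays were lower than all others of the series for this gene, and they were also the most spread. Med7 read 9.74, 9.57, 9.80 and 9.84 and 7.05, 7.03, 5.96 and 6.83, a difference of -3.02 ± 0.17 (SE, adjusted p = 7.09e-19). Med8 read 9.60, 9.22, 9.59 and 9.09 and 6.97, 5.48, 7.04 and 6.31, a difference of -2.93 ± 0.23 (SE, adjusted p = 1.72e-14). The other members at or past -2 were Med17 (-2.90), Med11 (-2.65), Med31 (-2.42), Cdk19 (-2.33) and Med20 (-2.17).

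On the higher side, Med12l, the paralog of Med12, read 6.84, 6.80, 7.09 and 7.03 and 9.47, 9.48, 9.58 and 9.63, a difference of 2.60 ± 0.15 (SE, adjusted p = 1.02e-18). Med13 read 8.01, 7.49, 7.76 and 7.88 and 9.99, 10.09, 9.99 and 10.08, a difference of 2.25 ± 0.12 (SE, adjusted p = 1.28e-19). Med14 read 7.45, 7.57, 7.92 and 7.94 and 9.24, 9.81, 9.62 and 9.62, a difference of 1.85 ± 0.12 (SE, adjusted p = 1.47e-16). The groups did not overlap in these 3 genes, but 2 other Med14 probe sets were lower (-1.43 and -4.0) and 1 other of Med13 was (-0.81), so the direction is that of the probe set used.

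**Figure D4:**
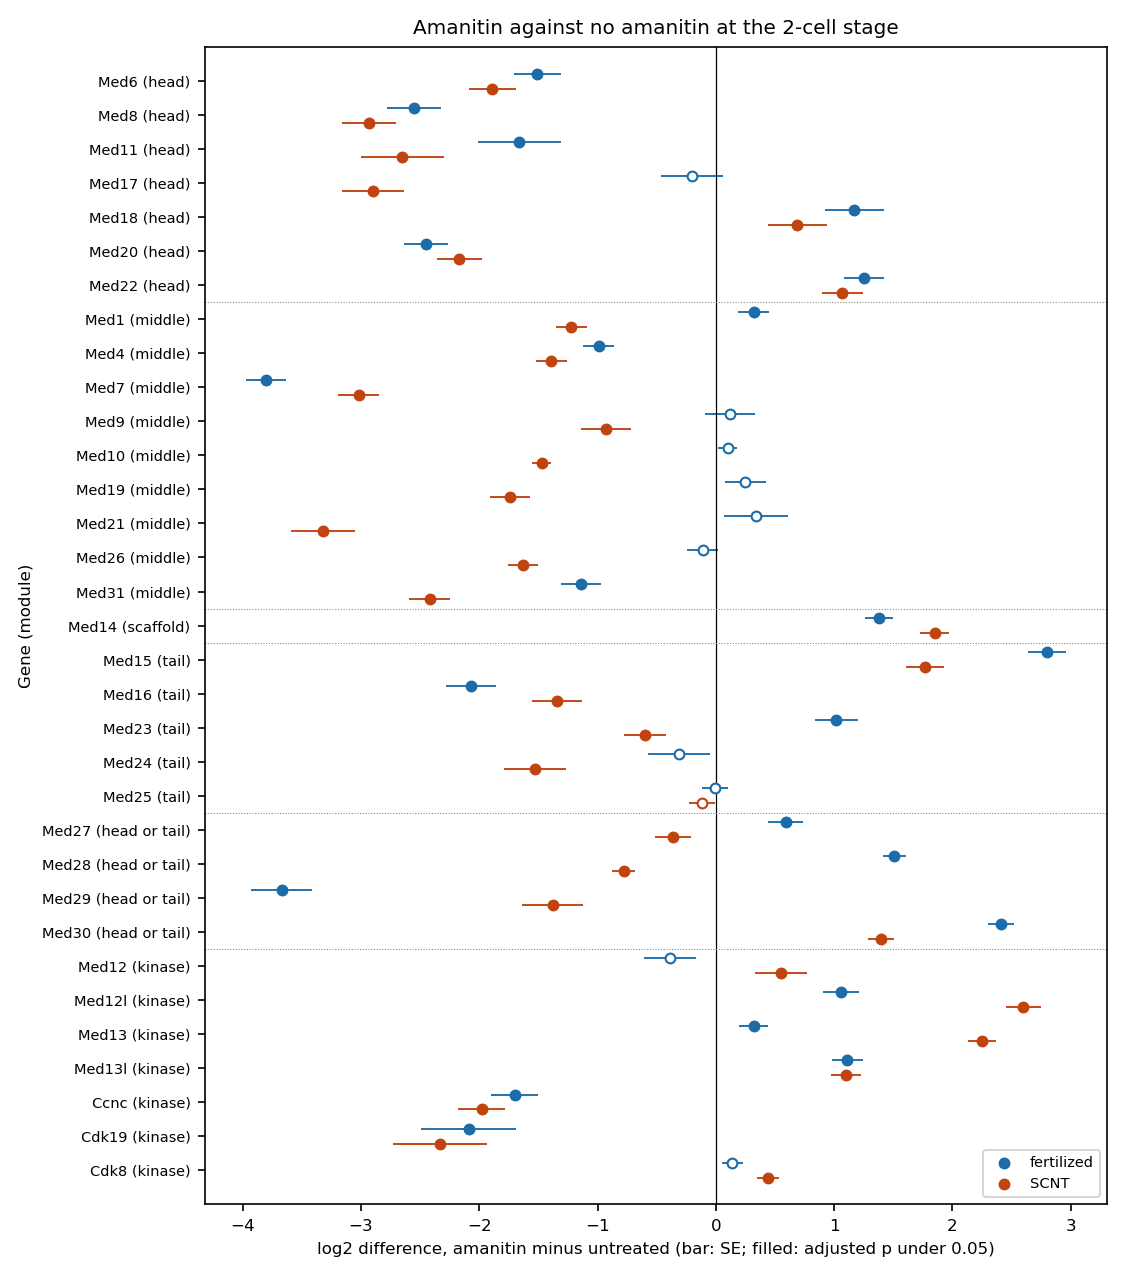
Log2 difference between amanitin and no amanitin at the 2-cell stage (horizontal axis) for 33 Mediator genes by module, in fertilized (blue) and SCNT embryos (orange), with bars of 1 SE and filled points where the adjusted p was under 0.05. The probe sets used for the 9 middle module genes lie left of 0 in SCNT embryos, while Med1, Med9, Med10, Med19, Med21 and Med26 lie between -0.11 and 0.34 in fertilized embryos.

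The amanitin differences of the 2 origins share no arrays. All 11 genes lower in fertilized embryos were lower in SCNT embryos (100% of the first list and 50% of the second), 8 were higher in both (66.7% and 80%), and Med1, Med23, Med27 and Med28 were called in opposite directions. For Med1 and Med28 this rests on the probe set used: 4 other Med1 probe sets were called lower in fertilized embryos, where the mean of its probe sets was -1.12, and the second Med28 probe set was higher in both origins. Calls shared by both origins were not counted over all genes, so the overlap has no background here. A test of the difference called 14 genes more negative and 7 more positive in SCNT embryos, against 38.9% of all genes (21.1% and 17.8%). By module, 7 of the 9 middle genes were more negative, with a median of -1.51 where all genes had 0.00, and 1 of 7 head genes was. The most negative were Med21 (-3.66 ± 0.39 SE, adjusted p = 4.09e-10), Med17 (-2.70 ± 0.37 SE, adjusted p = 1.1e-07) and Med28 (-2.29 ± 0.14 SE, adjusted p = 2.6e-16).

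Behind these values, Med21 read 8.30, 8.17, 7.71 and 8.26 in fertilized 2-cell embryos and 8.31, 8.57, 8.38 and 8.53 with amanitin, a difference not called (0.34), although the arrays of both groups were just apart. Med17 read 8.07, 8.47, 8.45 and 8.44 in SCNT 2-cell embryos and 3.89, 6.31, 5.57 and 6.05 with amanitin. Replicate 1, at 3.89, was the lowest array of that group. Med28 read 11.49, 11.44, 11.50 and 11.41 in SCNT 2-cell embryos and 10.59, 10.71, 10.83 and 10.62 with amanitin, lower on every array, where the fertilized arrays were all higher with amanitin. That second Med28 probe set gave 2.79 in fertilized and 2.61 in SCNT embryos, and its difference between origins was -0.17, not called. On the positive side stood Med29 (2.29), Med13 (1.94) and Med12l (1.54); the other Med29 probe sets gave 0.60 and 0.72, not called.

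For the middle module genes the probe sets also differed. Med10, Med21 and Med31 had 1 probe set each past the filter, and Med19's second went further the same way (-3.04 against -1.99). Med1, which binds nuclear receptors, had -1.54, but 2 of its 6 other probe sets were called the opposite way, at 1.56 and 1.01. Med9 had -1.05 and its other probe set 1.43, and Med26 had -1.51 and its other probe set 0.72, not called. Hybridization and poly(A) controls were both brightest on the SCNT amanitin arrays, as given above, and their part in these differences was not tested.

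Between the stages with amanitin present, SCNT embryos had 7 members higher and 20 lower, against 55.4% of all genes (25.6% higher, 29.8% lower). All 7 head genes fell, from -0.57 for Med20 to -5.48 for Med17, and 8 of 9 middle genes fell. Fertilized and SCNT embryos had 12 of these falls in common (85.7% of the fertilized and 60% of the SCNT list) and 6 of the rises (54.5% and 85.7%), among them Med14, Med13, Med13l and Cdk8. Shared calls were not counted over all genes here either. Med1, Med16 and Med30 were called in opposite directions. For Med1 this is the direction of the probe set used, since 1 other was called lower in fertilized and 2 others higher in SCNT embryos. The fertilized call of Med16 was lost at least once when single arrays were left out.

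At the 1-cell stage, amanitin moved few members. In fertilized embryos 3 of 33 were higher with it and 0 lower, against 6.03% of all genes called (3.59% higher, 2.45% lower): Med20 (0.99 ± 0.19 SE, adjusted p = 0.000879), Med12l (0.52) and Cdk8 (0.36). Med20 read 9.21, 10.08, 9.90 and 10.19 without and 10.75, 10.98, 10.95 and 10.68 with amanitin, without overlap, as in 5 of 33 members and 14.5% of all genes. The count was 1 without fertilized 1-cell replicate 3 and 12 after median centring. In SCNT 1-cell embryos limma called 0 of 33, against 0.429% of all genes (0.0805% higher, 0.349% lower), while 8 had an unadjusted p under 0.05 (8.21% of all genes did). The other settings also called 0. The difference between origins in the 1-cell amanitin change was called for Med12l alone (-0.85 ± 0.22 SE, adjusted p = 0.0269), against 2.41% of all genes (0.737% higher, 1.67% lower).

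Origins differed in 3 members at the 1-cell stage when SCNT was set against fertilized embryos, against 5.56% of all genes (2.87% higher, 2.69% lower): Med27 (-0.93 ± 0.16 SE, adjusted p = 0.000151) and Med10 (-0.32) were lower and Med29 (0.91) higher. Med27 read 8.98, 9.30, 9.22 and 8.74 in fertilized and 7.98, 8.25 and 8.15 in SCNT 1-cell embryos. The count was 1 without any of the 3 SCNT 1-cell arrays, and the split was 0 higher and 1 lower after median centring. Parthenogenetic 1-cell embryos differed from fertilized ones in 13 members, 6 higher and 7 lower, against 20.4% of all genes (10.9% higher, 9.52% lower), with 10 and 5 after median centring. The largest were Med17 (-1.43), Cdk19 (-1.07 ± 0.40 SE, adjusted p = 0.0497), Med20 (-0.93) and Med7 (-0.92) on the lower side, of which the Cdk19 call was lost without any of the 4 fertilized 1-cell arrays, and Med15 (0.66) and Med13 (0.65) on the higher. Against parthenogenetic embryos, SCNT 1-cell embryos had 4 higher and 6 lower, against 14.2% of all genes (7% higher, 7.19% lower), and 7 and 6 as deposited. With amanitin, SCNT 1-cell embryos had 3 members higher and 8 lower than fertilized ones, against 21.5% of all genes (10.1% higher, 11.4% lower), and 1 and 16 after median centring.

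At the 2-cell stage, SCNT embryos had 8 members higher and 11 lower than fertilized embryos, against 30.6% of all genes called (14.3% higher, 16.3% lower). The split was 6 and 7 as deposited and 1 and 13 after median centring. Med29 read 9.48, 9.31, 9.11 and 9.20 in fertilized and 6.92, 6.74, 7.13 and 7.05 in SCNT embryos, a difference of -2.31 ± 0.26 (SE, adjusted p = 3.47e-09), while its other 2 probe sets gave -1.11, called, and -0.67, not called. Med30 read 10.36, 10.09, 10.18 and 10.34 and 9.18, 8.39, 8.58 and 9.01, a difference of -1.45 ± 0.11 (SE, adjusted p = 1.47e-13). Med13 read 8.88, 8.81, 9.25 and 9.28 and 8.01, 7.49, 7.76 and 7.88, a difference of -1.27 ± 0.12 (SE, adjusted p = 6.03e-11), and 1 of its 3 other probe sets was called the same way. The groups did not overlap in the 3 genes, as in 13 of 33 members and 31.3% of all genes.

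The higher members were led by Med25, a tail subunit known as a target of viral and other activators, which read 9.24, 9.18, 8.90 and 8.99 in fertilized and 10.35, 9.97, 10.07 and 9.85 in SCNT 2-cell embryos, a difference of 0.98 ± 0.11 (SE, adjusted p = 4.67e-09). Its second probe set gave 0.10, not called. Med8 and Med20 followed, at 0.67 ± 0.23 (SE, adjusted p = 0.0239) and 0.61 ± 0.19 (SE, adjusted p = 0.011). Med20 read 11.43, 11.42, 11.18 and 11.31 and 11.91, 12.04, 11.95 and 11.88, without overlap. When each array was left out in turn, 7 of the 19 calls held each time, those of Med13, Med20, Med25, Med28, Med29, Med30 and Med6, and 12 were lost at least once. The Med28 call, higher in SCNT embryos, is that of the probe set used. Its second probe set was called lower, and the mean of its probe sets was -0.45. The count of higher genes was 3 without SCNT 2-cell replicate 3, 4 without fertilized 2-cell replicate 4 and 5 without fertilized 2-cell replicate 2. The count of lower genes was 6 without SCNT 2-cell replicate 1 or 2 and 7 without fertilized 2-cell replicate 2.

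Parthenogenetic 2-cell embryos had 7 members higher and 14 lower than fertilized ones, against 47.4% of all genes (26.4% and 21%), and a median of -0.29 where all genes had 0.07. Arrays of the 2 origins did not overlap in 21 of 33 members and in 45.3% of all genes. Med8 read 5.85, 6.12, 6.33 and 6.40 in parthenogenetic 2-cell embryos, below every fertilized array by over 2 log2 units, a difference of -2.53 ± 0.23 (SE, adjusted p = 5.46e-12). Med17 read 5.27, 5.74, 5.77 and 5.86, a difference of -2.39 ± 0.26 (SE, adjusted p = 4.09e-10). Med6 read 9.15, 9.28, 8.97 and 9.09 in fertilized and 7.78, 7.30, 7.34 and 7.03 in parthenogenetic embryos, a difference of -1.76 ± 0.20 (SE, adjusted p = 8.48e-10). Of its 2 other probe sets, 1 was called (-2.14) and 1 was not (-0.30). Of the 7 head genes, 4 were lower and Med22 was higher, and of the 5 tail genes, 4 were lower and Med15 was higher, while the second probe set of Med25, 1 of those 4, was higher (0.48).

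On the higher side were Med30, with 12.07, 11.90, 11.96 and 12.08 and a difference of 1.76 ± 0.11 (SE, adjusted p = 1.21e-16), Med15, with 9.23, 9.42, 9.15 and 9.23 and 1.70 ± 0.16 (SE, adjusted p = 9.19e-12), and Med22, with 9.16, 9.11, 9.02 and 9.41 and 1.18 ± 0.17 (SE, adjusted p = 1.2e-07). The stage change of these 3 genes in parthenogenetic embryos was -0.47, -0.56 and -0.28 (the last not called), where in fertilized embryos it was -1.65, -1.60 and -2.19. The genes were picked by the 2-cell arrays that enter both changes, so nothing is read from that contrast. Against parthenogenetic embryos, SCNT 2-cell embryos had 15 members higher and 9 lower, against 54.5% of all genes (24.4% higher, 30.1% lower). Med8 was the most different on the higher side (3.20) and Med30 on the lower (-3.21). With amanitin, SCNT 2-cell embryos had 8 members higher and 18 lower than fertilized ones, against 43.2% of all genes (18.6% higher, 24.6% lower), led by Med21 (-3.89), Med30 (-2.46) and Med17 (-2.39).

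In the kinase module, the kinase genes and their regulators went different ways. Cdk8 read between 11.26 and 12.45 on all 39 arrays. Its stage change was 0.52 in fertilized and 0.53 in SCNT embryos, both called, and the amanitin difference at the 2-cell stage was 0.14, not called, and 0.44, called. Its paralog Cdk19 rose between the stages in all 3 origins (1.89, 2.18 and 1.24) and read 5.65, 6.02, 3.92 and 5.43 in fertilized and 4.76, 5.62, 6.19 and 4.34 in SCNT 2-cell embryos with amanitin, below every untreated 2-cell array of the same origin. Its second probe set rose in all 3 origins as well. Ccnc, whose protein partners both kinases, read 6.97, 6.98, 7.10 and 7.13 at the fertilized 1-cell and 6.69, 7.03, 6.74 and 7.03 at the 2-cell stage, which was not called, and 5.74, 4.76, 5.28 and 4.91 with amanitin. All amanitin arrays were lower (-1.70 ± 0.20 SE, adjusted p = 6.9e-10).

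Med12l and Med13l, paralogs of the scaffold genes of the kinase module, were higher with amanitin. Med12l read 7.07, 7.33, 7.49 and 7.58 and 8.47, 8.22, 8.56 and 8.48 in fertilized 2-cell embryos (1.06 ± 0.15 SE, adjusted p = 5.02e-08), and Med13l read 9.13, 8.83, 9.03 and 8.96 and 10.26, 10.07, 9.92 and 10.15 (1.11 ± 0.13 SE, adjusted p = 9.78e-10). In SCNT embryos Med13l read 9.53, 9.40, 9.55 and 9.05 and 10.49, 10.57, 10.60 and 10.28 (1.10). Med12, the X-linked paralog of Med12l, read 6.57, 6.82, 6.68 and 6.78 and 6.46, 6.26, 6.60 and 5.95 in fertilized embryos, a difference not called (-0.39), and 6.67, 5.97, 5.60 and 6.21 and 6.499, 6.86, 6.95 and 6.34 in SCNT embryos, a difference called (0.55) that was lost when any 1 of 4 arrays was left out and under both other scalings. Med13 read 8.35, 8.35, 8.497 and 8.47 and 8.88, 8.81, 9.25 and 9.28 in fertilized embryos at the 2 stages and 8.57, 8.55 and 8.38 and 8.01, 7.49, 7.76 and 7.88 in SCNT embryos, so that the probe set used rose in the first and fell in the second, where another rose (1.10) and the mean of probe sets was 0.00.

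Where a gene had several probe sets past the filter, they did not always tell the same story. This held 32 other probe sets of 18 genes. In the fertilized stage change 12 were called the same way as the probe set used and 6 the opposite way, and with amanitin at the fertilized 2-cell stage 9 and 8. For Med14 all 4 others rose between the stages (1.03 to 5.77) and were lower with amanitin (-0.45 to -4.80), against -0.31 and 1.38 for the probe set used. For Med1 the 4 others called lower with amanitin ranged from -1.58 to -3.17. For Ccnc one other rose by 2.50 and was lower by 4.38 with amanitin. Med15's second, dimmer probe set gave -0.01 with amanitin, and Med8's gave 0.33, neither called. The 3 Med29 probe sets all rose (3.14 to 4.99) and were all lower with amanitin (-3.23 to -5.06). For Med7, Med17, Med22, Med23, Med30 and Med21 1 probe set passed the filter, so no such check was possible.

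**Figure D5:**
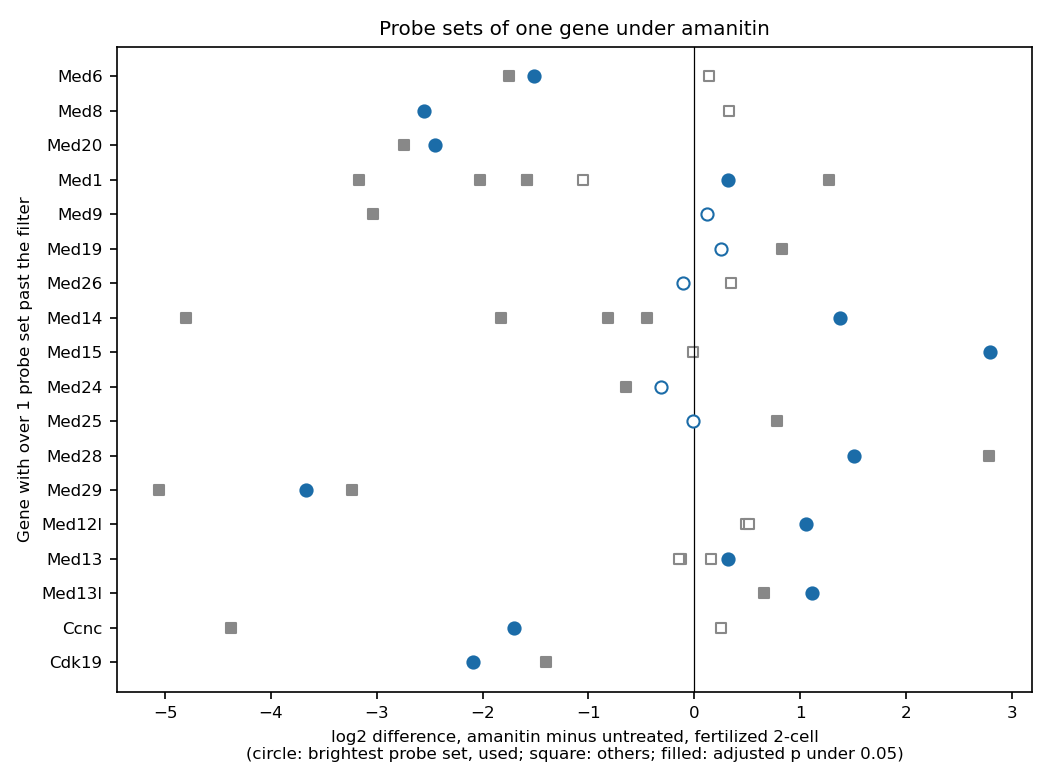
Log2 difference between amanitin and no amanitin in fertilized 2-cell embryos (horizontal axis) for each probe set past the filter of the 18 Mediator genes with more than 1, with a circle for the probe set used, squares for the others and filled symbols where the adjusted p was under 0.05. The 4 other probe sets of Med14 lie left of 0 and the one used lies at 1.38, while the 3 of Med29 all lie left of -3.

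Other parts of the polymerase II machinery gave a background for these counts. Of 10 tested polymerase II subunit genes, 7 rose and 2 fell between the fertilized stages (median 1.16), of 31 general transcription factor genes 17 rose and 6 fell (median 0.32), and of 25 pausing and elongation genes 13 rose and 8 fell (median 0.46). Among all genes, 25.8% rose and 34.2% fell there. With amanitin at the fertilized 2-cell stage, 6 polymerase genes were lower and 3 higher, 16 and 9 general factor genes, and 16 and 8 elongation genes. In SCNT 2-cell embryos these counts were 8 and 1, 15 and 11, and 19 and 4. Among all genes, 25.8% were lower and 38.6% higher with amanitin in fertilized, and 29.7% and 39.6% in SCNT embryos. The difference between origins called 6 of 10 polymerase genes more negative in SCNT embryos and 1 more positive (median -1.21). It called 10 of 31 general factor genes more negative and 10 more positive (median -0.09). Of 25 elongation genes it called 9 and 5 (median -0.39), and of the 33 Mediator members 14 and 7 (median -0.40). The shares over all genes were 21.1% and 17.8%.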

How the data were processed

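Gene expression of 39 arrays in 10 groups was read from the series' value table. The deposited values are probe set intensities on a linear scale, which the authors had scaled per array, as the nearly equal array means show. The software and the scaling method are not given in the sources used here. Of 45101 probe sets, 34945 were annotated to 1 gene, 932 to several and 9160 to none, and 64 were controls. Intensities plus 6.9 (the 20th percentile) were log2 transformed. Array medians ranged from 4.916 to 5.739, more than the limit of 0.5, so quantile normalization followed. A probe set stayed in if it exceeded the overall median (5.34) on at least 4 arrays, and the brightest single-gene probe set stood for each of 14916 genes. limma 3.58.1 in R 4.3.3 fitted the 10 group means in 1 model (lmFit, eBayes with trend, 29 residual degrees of freedom), and p-values were adjusted by Benjamini-Hochberg over all genes tested. There were 17 comparisons and 4 differences of differences, tested on simulated data first. The precision is limited by the number of arrays.

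Any member could be named. Array values were given for the 3 called members with the largest increase and the 3 with the largest decrease in 5 comparisons and the 2-cell amanitin difference of origins, and for the kinase module. The members and lists were chosen with earlier results of these data known. Alternatives changed the filter, scaling, constant, probe set choice, trend, array weights, replicate block, arrays fitted, and each array left out. Replicate numbers did not pair the samples.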

Additional observations from a re-analysis of the deposited data

Results flagged for a closer look

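In 7 of 189 sets of 4 arrays, 1 array lay further from its group than Dixon's 95% critical value allows, where chance flags about 1 in 20. Cdk19 read 4.023 on replicate 1 of SCNT 1-cell embryos with amanitin, where the others read 5.252 to 5.387. Med7 read 6.029 on replicate 3 of fertilized 2-cell embryos with amanitin (others 6.281 to 6.33). Med17 read 8.069 on replicate 1 of SCNT 2-cell embryos (others 8.435 to 8.466). Med6 read 8.374 on replicate 1 of parthenogenetic 1-cell embryos (others 8.756 to 8.802). Med12l read 7.792 on replicate 2 of fertilized 1-cell embryos with amanitin (others 8.001 to 8.043). Med23 read 9.116 on replicate 2 of fertilized 2-cell embryos with amanitin (others 9.024 to 9.039). Cdk8 read 12.44 on replicate 2 of SCNT 2-cell embryos with amanitin, next to 12.45 on the others, a gap without size. Dixon's ratio was taken from values rounded as printed, so this flag, counted among the 7, can come from rounding alone.

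Changes that differed between origins by limma's test of the difference were the following. For amanitin at the 2-cell stage, SCNT minus fertilized was positive for Med29 (2.29), Med13 (1.94), Med12l (1.54), Med12 (0.94), Med7 (0.78), Med16 (0.72) and Med14 (0.47). It was negative for Med21 (-3.66), Med17 (-2.70), Med28 (-2.29), Med19 (-1.99), Med23 (-1.62), Med10 (-1.57), Med1 (-1.54), Med26 (-1.51), Med31 (-1.28), Med24 (-1.22), Med9 (-1.05), Med15 (-1.03), Med30 (-1.01) and Med27 (-0.94). At the 1-cell stage it was -0.85 for Med12l.

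For the stage change, SCNT minus fertilized was 0.70 for Med25 and 0.48 for Med10, and -3.23 for Med29, -1.45 for Med30, -1.35 for Med13, -0.80 for Med6 and -0.56 for Med1. Parthenogenetic minus fertilized was positive for Med22 (1.91), Med30 (1.18), Med15 (1.03), Med28 (0.89) and Med13l (0.50). It was negative for Med8 (-1.92), Med31 (-1.78), Med6 (-1.41), Med17 (-0.96), Med16 (-0.93), Med23 (-0.89), Med25 (-0.80), Cdk8 (-0.72) and Med13 (-0.71).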

How the results depend on the processing

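Several counts of called Mediator genes moved by over 1.5 times. With each array centred on its median, lower genes in the parthenogenetic stage change went from 11 to 23, calls with amanitin at the fertilized 1-cell stage from 3 to 12, SCNT minus fertilized 1-cell from 3 to 1, higher genes in SCNT minus fertilized 2-cell from 8 to 1, SCNT minus fertilized 1-cell with amanitin from 11 to 17, and the 1-cell amanitin difference of origins from 1 to 8. That difference was 2 as deposited, 0 with the mean of probe sets and 3 with array weights. With array weights, calls were 5 for amanitin at the fertilized 1-cell stage and 16 (from 10) for SCNT minus parthenogenetic 1-cell. Without the trend, SCNT minus fertilized 1-cell gave 1 call, and 7 with amanitin. With only the arrays compared, these were 1 for SCNT minus fertilized 1-cell, 18 for SCNT minus parthenogenetic 1-cell and 7 lower genes for SCNT minus fertilized 2-cell, also 7 as deposited. With the mean of probe sets, 5 were higher there. Leaving out 1 array each gave 1 to 4 calls for amanitin at the fertilized 1-cell stage, 1 to 3 for SCNT minus fertilized 1-cell, 3 to 8 higher and 6 to 11 lower for SCNT minus fertilized 2-cell, 5 to 13 for SCNT minus fertilized 1-cell with amanitin, and 0 to 2 for the 1-cell amanitin difference of origins. Where only the total was followed under all alternatives, a direction's count could still move with the scaling: median centring took higher genes from 11 to 4 in the fertilized stage change with amanitin, from 6 to 10 in parthenogenetic minus fertilized 1-cell, from 5 to 3 in the parthenogenetic difference of stage changes and from 2 to 0 in the SCNT one (1 as deposited), and it gave 1 higher in place of 3 and 16 lower in place of 8 for SCNT minus fertilized 1-cell with amanitin. As deposited, higher genes in SCNT minus parthenogenetic 1-cell were 7 in place of 4. The causes were not tested. Of 693 single-gene differences, 343 were called. Calls lost with the sign kept, and calls gained, were 22 and 22 as deposited, 37 and 64 with median centring and 40 and 35 with probe sets averaged. Beside these losses, the sign turned for 3 calls with median centring and for 19 with probe sets averaged. Losses and gains were 10 and 12 with replicate 1 of the fertilized 1-cell group and replicate 4 of the amanitin-treated SCNT 1-cell group both left out. These arrays stood apart in an earlier analysis.

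With all of a gene's probe sets averaged, the direction turned for Med14 (stage fertilized 2.00, stage SCNT 1.43, amanitin fertilized 2-cell -1.30, amanitin SCNT 2-cell -0.66, parthenogenetic minus fertilized 2-cell -0.82, SCNT minus parthenogenetic 2-cell 0.34), Med8 (stage fertilized -0.30), Med13 (stage SCNT 0.00), Ccnc (stage parthenogenetic 0.33), Med1 (amanitin fertilized 2-cell -1.12, difference of origins 0.19), Med28 (amanitin SCNT 2-cell 0.92, SCNT minus fertilized 2-cell -0.45), Med13l (SCNT minus fertilized 2-cell -0.05, with amanitin -0.13, parthenogenetic minus fertilized -0.01), Med25 (parthenogenetic minus fertilized 2-cell 0.02) and Med9 (SCNT minus fertilized 2-cell with amanitin 0.07, difference of origins 0.19). Averaging over probe sets that disagree builds this in. With median centring it turned for Med27 (stage parthenogenetic -0.04), Med12l and Med25 (stage fertilized with amanitin -0.13 and -0.16).

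Same-numbered replicates had residual correlations of -0.0351 to 0.0884 over 45 group pairs, and 44 of 171 best matches were to the own number, so the numbers share only a number. With the replicate block, higher genes in SCNT minus fertilized 2-cell were 6 in place of 8, calls in SCNT minus fertilized 1-cell 2 in place of 3, and those in the 2-cell amanitin difference of origins 20 in place of 21.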
